A study of Mus musculus with 47 samples.

Results

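The genes described here mark oligodendrocyte precursors and newly formed oligodendrocytes, and they were followed in the hippocampus of young and old mice. The 10 genes, Pdgfra, Cspg4, C1ql1, Neu4, Gpr17, Bcas1, Enpp6, Olig1, Olig2 and Sox10, were chosen by name as genes of these stages, out of 35486 genes in the count table. Earlier results of these data were known when they were chosen. All 10 were found in the table, and all 10 passed the filter on low counts that left 17778 genes for testing. The libraries were made from whole hippocampus of 47 male C57BL/6J mice. The 13 Young Veh mice and the 12 Young PF4 mice were 3.75 to 5.26 months old, and the 12 Old Veh mice and the 10 Old PF4 mice were 17.4 to 20.23 months old. Veh mice received vehicle by peripheral injection, and PF4 mice received mouse platelet factor 4, a chemokine stored in platelets. The labels name no altered gene. The labels hold no library of number 4 in the Old PF4 group.

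Oligodendrocyte precursors are dividing glial cells that persist in the adult brain and carry the PDGF receptor alpha and the NG2 proteoglycan on their surface. When a precursor leaves the cell cycle it passes through a short premyelinating stage, marked by the receptor GPR17, the early myelin protein BCAS1 and the choline phosphodiesterase ENPP6, before it becomes a myelinating cell. The transcription factors OLIG1, OLIG2 and SOX10 are present in all of these stages and in the mature cell. In a bulk sample a lower level can mean fewer cells of a stage or less RNA in each cell, and the present data cannot tell these apart.

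Total counts ran from 2242879 to 21112908 reads a library, with a median of 10374007, and 8 libraries held fewer than 5000000 reads (1 Young Veh, 2 Young PF4, 4 Old Veh and 1 Old PF4). Each member was detected in every library, with at least 16 reads (Neu4, in its lowest library). Levels are given in CPM, the read count of a gene scaled to a common library size, with library sizes adjusted by TMM. Differences are log2 fold changes of edgeR's quasi-likelihood test, fitted to all 4 groups at once, and a gene is described as called where its p, adjusted by the Benjamini-Hochberg method over all 17778 genes, was below 0.05. The neuronal markers that define the tissue had a summed level between 7547 and 10070 CPM, and those of astrocytes one between 4205 and 5768 CPM. The length index, the mean level of genes with long transcripts minus that of genes with short transcripts, was -0.35 in Young Veh replicate 4 and -0.23 in Old PF4 replicate 8, and between -0.16 and 0.18 in the other libraries. The labels number all Old libraries from 1 to 23 and all Young libraries from 24 to 48, so the order of the numbers and age cannot be told apart. Choroid plexus markers differed widely between libraries, with a median summed level of 1943 CPM in Young Veh, 2380 in Young PF4, 47.1 in Old Veh and 65.9 in Old PF4.

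Compared per length of transcript, the members spanned a wide range of levels in the hippocampus. Olig1 stood highest, at 56.6 ± 7.85 CPM per kilobase of exon (SD, n = 47), followed by Bcas1 at 28.8 ± 4.91 and Sox10 at 14.1 ± 2.49. In all 47 libraries each of these genes lay above the next in the order. Olig2 (8.73 ± 1.58) and C1ql1 (7.79 ± 1.34) came next, and their means differed by less than the SD, although Olig2 was the higher gene in 37 of 47 libraries. Gpr17 (4.30 ± 1.08) and Pdgfra (4.11 ± 0.568) formed the next pair, with Gpr17 the higher gene in 23 of 47 libraries. Neu4 (1.89 ± 0.336) and Enpp6 (1.63 ± 0.352) also lay within an SD of each other, and Cspg4 was lowest at 1.23 ± 0.250. With the longest annotated transcript as the length, 6 of the 10 genes kept their rank, and the order within the pairs Gpr17 and Pdgfra and Neu4 and Enpp6 turned around.

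**Figure D1:**
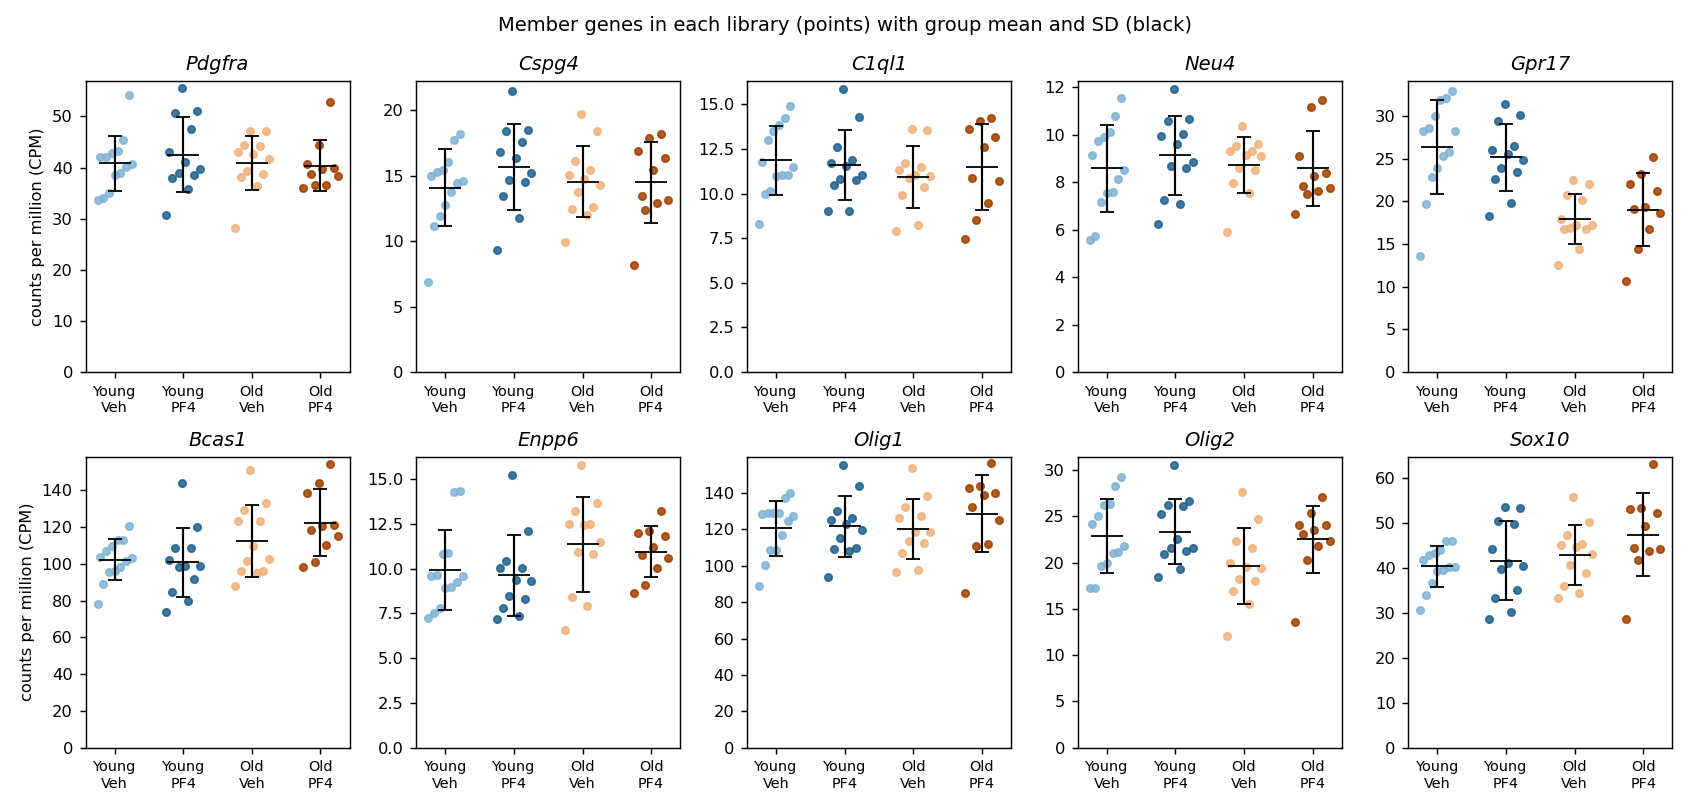
Level of each member in CPM (vertical axes, starting at 0) in each of the 47 libraries, by group, with black bars for the group mean and SD. Gpr17 lies lower in both Old groups, with means of 17.9 and 19 CPM against 26.4 and 25.1 in the Young groups, while Pdgfra has group means between 40.4 and 42.5 CPM.

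Old mice were compared with Young mice to ask how age bears on these genes. Gpr17 fell with age, Bcas1 rose by a small amount, and the 4 precursor genes Pdgfra, Cspg4, C1ql1 and Neu4 did not pass the test. Over both treatments 2 of the 10 members were called (1 or 2 with 1 library left out), against 4.71% of all genes tested. Of all genes called, 588 were higher and 250 lower in Old mice. Among Veh mice alone 1 of 10 members was called, against a background of 2.77%. Among PF4 mice alone 0 of 10 were called by edgeR and 0 by DESeq2, with 2 at an unadjusted p below 0.05, where edgeR called 0.332% of all genes.

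Gpr17 encodes a G protein-coupled receptor that appears in committed precursors and is lost again when the cell matures. Its level ran from 13.6 CPM in the lowest to 33 in the highest Young Veh library, with a median of 28.3. In Young PF4 mice the lowest, median and highest values were 18.3, 25.1 and 31.4 CPM. In Old Veh mice they were 12.5, 17.2 and 22.5 CPM, and in Old PF4 mice 10.6, 19.2 and 25.2 CPM. All 22 Old libraries lay below the median of the Young libraries, and 15 of the 25 Young libraries lay above every Old library, but the ranges of the ages overlapped. The mean was 25.8 ± 4.75 CPM in Young (SD, n = 25) and 18.4 ± 3.58 CPM in Old mice (SD, n = 22).

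Over both treatments the log2 fold change of Gpr17 was -0.48 (SE 0.083, 95% interval -0.65 to -0.31, edgeR adjusted p = 0.000123). In Veh mice it was -0.56 (SE 0.11, edgeR adjusted p = 0.00205). In PF4 mice it was -0.40 (SE 0.12, edgeR adjusted p = 0.172), which missed the threshold. The difference between these values, tested as the difference of the PF4 effect between Old and Young, was 0.16 (95% interval -0.17 to 0.49, edgeR adjusted p = 1.00), so a smaller fall in PF4 mice was not shown. The fall over both treatments was called in all 47 fits that left out 1 library, with log2 fold changes between -0.51 and -0.44.

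Within groups Gpr17 moved with the length index (Pearson r = 0.633, Spearman rho = 0.365, 47 libraries), and the libraries of the lowest index, Young Veh replicate 4 and Old PF4 replicate 8, were also the lowest of their groups for Gpr17, at 13.6 and 10.6 CPM. Without both libraries the log2 fold change over both treatments was -0.47 (edgeR adjusted p = 3.47e-06), and with the length index as a covariate it was -0.52 (edgeR adjusted p = 3.83e-07). The Gpr17 gene, on chromosome 18 in GRCm38, overlaps Lims2 on the opposite strand, and the libraries carry no strand information, so reads of the shared stretch could belong to either. Lims2, a focal adhesion protein gene, had a log2 fold change of -0.10 over both treatments (SE 0.053, edgeR adjusted p = 0.315).

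The levels of the precursor genes overlapped between the ages over most of their range, with at most 3 libraries of an age above or below every library of the other. Pdgfra, the receptor for the mitogen that keeps precursors dividing, ran from 30.7 to 55.5 CPM in Young and from 28.2 to 52.7 CPM in Old mice, with means of 41.6 ± 6.29 and 40.7 ± 5.02. Its log2 fold change over both treatments was -0.03 (95% interval -0.14 to 0.09, edgeR adjusted p = 0.872). Cspg4, which encodes NG2, had means of 14.9 ± 3.16 CPM in Young and 14.5 ± 2.83 CPM in Old mice and a log2 fold change of -0.03 (95% interval -0.21 to 0.15, edgeR adjusted p = 0.912). For these genes 13 and 12 of the 22 Old libraries lay below the Young median. C1ql1, a secreted C1q-like protein, had a log2 fold change of -0.07 (95% interval -0.22 to 0.08, edgeR adjusted p = 0.687). Neu4, a sialidase that removes sialic acid from glycans, had one of -0.04 (95% interval -0.19 to 0.11, edgeR adjusted p = 0.837). All 4 intervals lay above the point estimate of Gpr17. A missed threshold does not show that these genes stayed the same, and the intervals give the range of change that these data leave.

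Set against the precursor genes of the same library, Gpr17 was lower in Old mice. The log2 CPM of Gpr17 minus that of Pdgfra had a median of -0.52 in Young Veh, -0.62 in Young PF4, -1.18 in Old Veh and -1.05 in Old PF4 mice. Of the 25 Young libraries, 14 lay above every Old library on this difference, and 1 of the 22 Old libraries lay below every Young one. Against the mean of the 4 precursor genes, the medians were 0.75, 0.64, 0.19 and 0.29 in the same order of groups. No test was made of these within-library differences.

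Bcas1, which encodes a protein of early myelinating cells, was the other member called. Its lowest, median and highest levels were 78.3, 103 and 121 CPM in Young Veh and 73.8, 98.9 and 144 CPM in Young PF4 mice. In Old Veh mice they were 88.0, 106 and 151 CPM, and in Old PF4 mice 98.4, 119 and 154 CPM. The groups overlapped over most of their range, with 16 of 22 Old libraries above the Young median and 3 of them above every Young library. Over both treatments Bcas1 rose by a log2 fold change of 0.21 (SE 0.063, 95% interval 0.08 to 0.33, edgeR adjusted p = 0.0430). It was 0.13 in Veh mice (edgeR adjusted p = 0.478) and 0.28 in PF4 mice (edgeR adjusted p = 0.242), neither of which passed.

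The call of Bcas1 stood close to the threshold. It was made in 22 of the 47 fits that left out 1 library and missed in 25, with adjusted p-values from edgeR between 0.0111 and 0.0818 and log2 fold changes between 0.18 and 0.24. It was also missed without the filter on low counts (edgeR adjusted p = 0.0534) and without the libraries under 5000000 reads (edgeR adjusted p = 0.109). With the mature myelin score of a library, the mean log2 CPM of the mature myelin list, as a covariate, the log2 fold change of Bcas1 was 0.03 (edgeR adjusted p = 0.880), while that of Gpr17 was -0.43 (edgeR adjusted p = 0.0115). Bcas1 lies at chr2:170346991-170427845 in GRCm38 and overlaps the antisense genes Bcas1os1 and Bcas1os2, which held 3270 and 843 reads over all libraries beside 51457 for Bcas1.

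**Figure D2:**
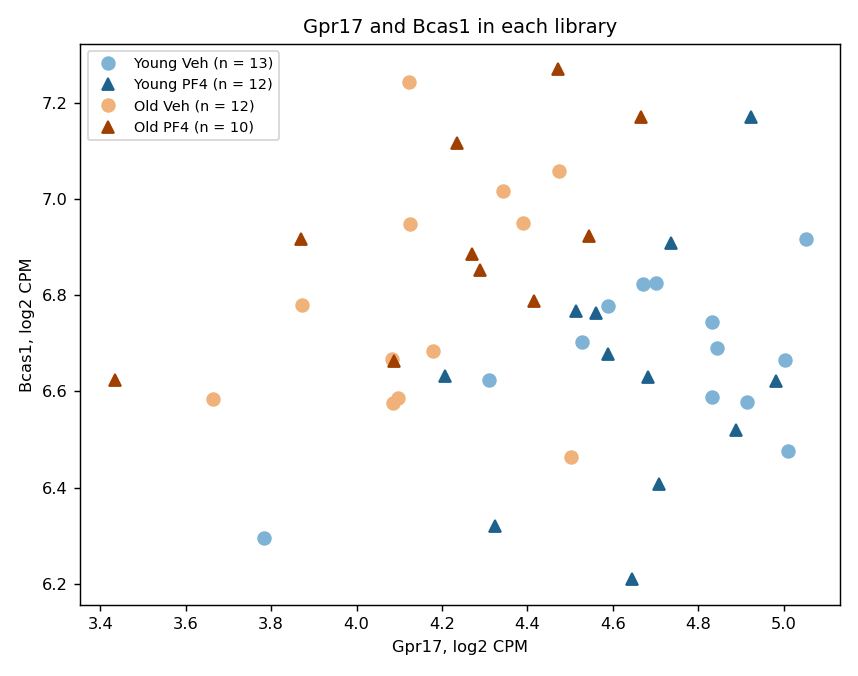
Bcas1 against Gpr17, both as log2 CPM, in each library, coloured by group (circles Veh, triangles PF4). Old libraries lie mostly to the left, but the ages overlap, with 15 of 25 Young libraries above every Old library for Gpr17. The log2 CPM of Bcas1 minus Gpr17 has a median of 2.58 in Old Veh and 2.60 in Old PF4 against 1.91 in Young Veh and 2.04 in Young PF4.

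Bcas1 and Gpr17, both genes of the newly formed stage, changed in opposite directions. The log2 CPM of Bcas1 minus that of Gpr17 ran from 1.47 to 2.51 in Young Veh and from 1.57 to 2.42 in Young PF4 mice. In Old Veh mice it ran from 1.96 to 3.12 and in Old PF4 mice from 2.37 to 3.19. The third gene of this stage, Enpp6, which cleaves choline phosphate lipids and marks cells that are about to myelinate, had medians of 9.57 and 9.34 CPM in Young Veh and Young PF4 and of 12.0 and 11.0 CPM in Old Veh and Old PF4 mice. Its log2 fold change over both treatments was 0.20 (95% interval 0.03 to 0.36, edgeR adjusted p = 0.177), which did not pass over all genes, and 17 of 22 Old libraries lay above the Young median. With the mature myelin score as a covariate the direction of Enpp6 turned, to -0.034 over both treatments.

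Of the 3 transcription factors, 0 were called with age by edgeR or DESeq2 over both treatments, and 0 had an unadjusted p below 0.05. Olig1, which promotes myelination, had means of 121 ± 15.5 CPM in Young and 124 ± 18.8 CPM in Old mice and a log2 fold change of 0.04 (95% interval -0.08 to 0.15, edgeR adjusted p = 0.800). Olig2, the factor that specifies the lineage, had means of 23.1 ± 3.71 and 20.9 ± 4.09 CPM, and its log2 fold change was -0.14 (95% interval -0.29 to 0.01, edgeR adjusted p = 0.283). Olig2 had a median of 19.4 CPM in Old Veh mice against 21.8 in Young Veh, 22.1 in Young PF4 and 23.3 in Old PF4 mice, and 4 Old libraries, 1 of them Old PF4 replicate 8, lay below every Young library. Among Veh mice alone the log2 fold change of Olig2 was -0.23 (95% interval -0.43 to -0.03, edgeR adjusted p = 0.240). Sox10, which acts with the Olig factors and drives myelin genes, had means of 41 ± 6.80 and 45 ± 8.05 CPM and a log2 fold change of 0.13 (95% interval -0.01 to 0.28, edgeR adjusted p = 0.303). With the mature myelin score as a covariate the values of Sox10 and Olig1 over both treatments turned to -0.020 and -0.078. Olig1 and Olig2 are neighbours on chromosome 16 (chr16:91269772-91271933 and chr16:91225457-91228677 in GRCm38, both on the plus strand), and Olig1 overlaps the antisense transcript Gm15966, which held 4388 reads over all libraries.

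**Figure D3:**
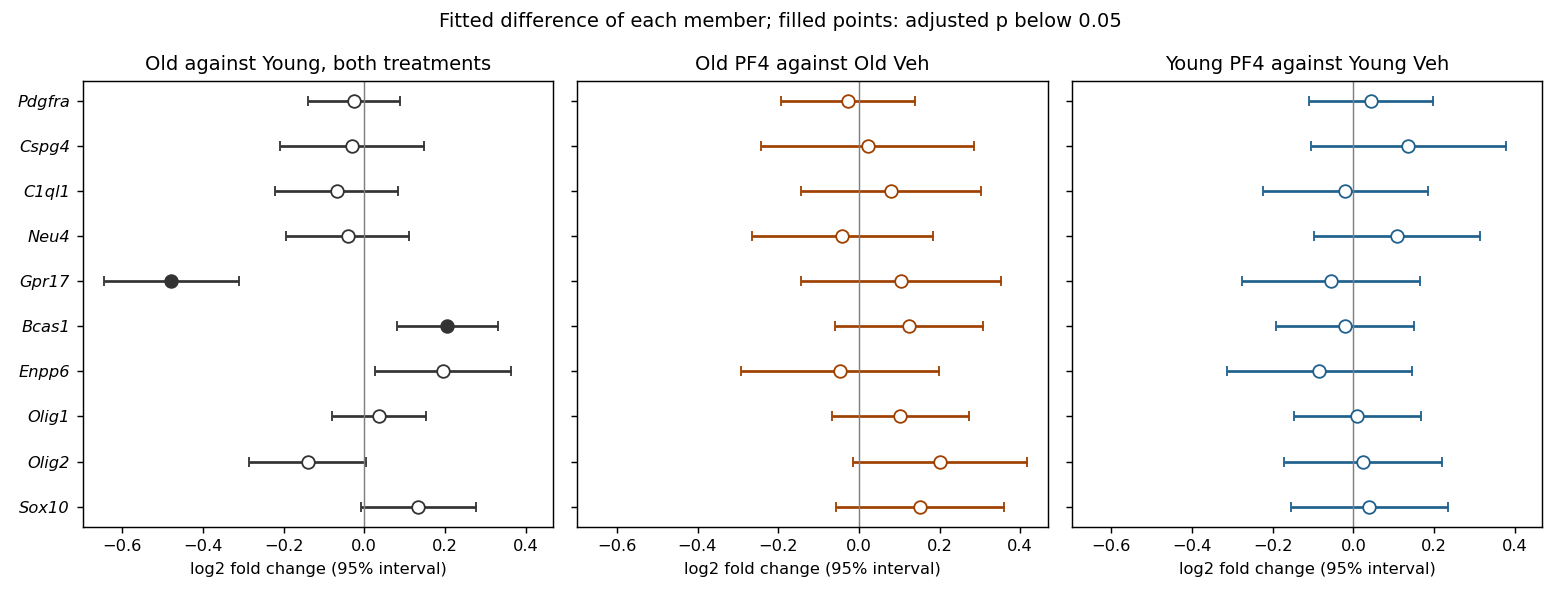
Log2 fold change of each member with its 95% interval (horizontal axes) for Old against Young over both treatments and for PF4 against Veh in Old and in Young mice. Filled points had an edgeR adjusted p below 0.05, and these are Gpr17 (-0.48) and Bcas1 (0.21) in the comparison of ages.

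PF4 was compared with vehicle at each age to ask whether treatment moved these genes. In Old mice 0 of 10 members were called by edgeR, 0 had an unadjusted p below 0.05 and 0 were called by DESeq2. Of all genes tested edgeR called 6 (0.0337%), a count that ran from 0 to 20 with 1 library left out. The largest difference among the members was that of Olig2, 0.20 (95% interval -0.01 to 0.42, edgeR adjusted p = 0.842), for which 9 of 10 Old PF4 libraries lay above the Old Veh median. Sox10 followed with 0.15 (95% interval -0.06 to 0.36, edgeR adjusted p = 0.920), Bcas1 with 0.13 (95% interval -0.06 to 0.31, edgeR adjusted p = 0.937) and Gpr17 with 0.10 (95% interval -0.14 to 0.35, edgeR adjusted p = 0.987). The other 6 members had log2 fold changes between -0.05 and 0.10.

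In Young mice 0 of 10 members and 0 genes of all tested (0.0%) were called by edgeR and by DESeq2, with 0 members and 213 genes at an unadjusted p below 0.05. The members' log2 fold changes ran from -0.08 (Enpp6) to 0.14 (Cspg4), and the widest interval, that of Cspg4, reached from -0.11 to 0.38. The difference of the PF4 effect between Old and Young was called by edgeR and by DESeq2 for 0 of 10 members and for 0 genes of all tested (0.0%), with 0 members and 707 genes at an unadjusted p below 0.05. Its values ran from -0.15 (Neu4) to 0.18 (Olig2) among the members. The comparisons share their Old or Young groups, so the values of a member across them are not independent.

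Genes of the same stages that were not among the 10 members gave a mixed picture with age. Of 12 other precursor genes, 0 were called by edgeR or by DESeq2 over both treatments and 0 had an unadjusted p below 0.05, with a median log2 fold change of -0.01 against -0.004 over all genes tested. The smallest p-values in that list were those of Nkx2-2, a transcription factor of differentiating precursors (0.18, edgeR adjusted p = 0.309), and Ptprz1, a receptor phosphatase (0.03, edgeR adjusted p = 0.518). The 15 other newly formed oligodendrocyte genes held 14 that could be tested, since Casr failed the count filter. Of these 14, 1 rose, 1 fell and 12 were not called, with a median of -0.06. Lims2, which overlaps Gpr17, belongs to this list.

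The gene that fell was 9630013A20Rik, a long noncoding transcript of this stage. Its means were 2.94 ± 1.06 CPM in Young Veh, 2.65 ± 0.741 in Young PF4, 2.05 ± 0.703 in Old Veh and 1.58 ± 0.648 in Old PF4 mice. Its log2 fold change over both treatments was -0.64 (SE 0.14, edgeR adjusted p = 0.00249), and 20 of 22 Old libraries lay below the Young median. The gene that rose was Myrf, the transcription factor that switches on myelin genes when a precursor matures. Its means were 34.5 ± 4.73 and 35.1 ± 4.81 CPM in Young Veh and Young PF4 and 43.6 ± 9.44 and 41.3 ± 6.61 CPM in Old Veh and Old PF4 mice. The log2 fold change of Myrf was 0.28 (SE 0.070, edgeR adjusted p = 0.00958), and 12 of 22 Old libraries lay above every Young library. In Veh mice Myrf was also called (0.33, edgeR adjusted p = 0.0415), but in 12 of 25 fits that left out 1 library, and the call was missed with the Veh groups fitted alone, without the count filter and with the mature myelin score as a covariate. With that covariate the value of Myrf over both treatments was 0.11 and no longer called (edgeR adjusted p = 0.551). Bmp4, a secreted factor of this stage with mean levels between 1.23 and 2.12 CPM, had a log2 fold change of -0.59 over both treatments (edgeR adjusted p = 0.0750).

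Among 20 regulators of precursor signalling and differentiation, 1 rose and 1 fell with age over both treatments, and the list had a median of -0.02. Without Young Veh replicate 4 and Old PF4 replicate 8, 6 of the 20 were called, and genes called among all tested rose from 838 to 1148. With the mature myelin score as a covariate, 1 of the 20 was called over both treatments, Id4, and Chd7 was missed (edgeR adjusted p = 0.410). Id4, an inhibitor of basic helix-loop-helix factors that holds precursors back from differentiation, fell by 0.14 on the log2 scale (SE 0.034, edgeR adjusted p = 0.00639). Chd7, a chromatin remodeller that acts with SOX10, rose by 0.20 (SE 0.048, edgeR adjusted p = 0.00839). In Veh mice Chd7 rose by 0.28 (edgeR adjusted p = 0.00850) and Id4 fell by 0.20 (edgeR adjusted p = 0.00954). Id2, a relative of Id4, fell by 0.17 in that comparison (edgeR adjusted p = 0.0295), a call that was made in 19 of 25 fits that left out 1 library. In PF4 mice alone 0 of the 20 regulators were called by edgeR and 0 by DESeq2, with 2 at an unadjusted p below 0.05. There the mean of Id2 was 150 CPM in Young and 159 CPM in Old mice. Without the libraries under 5000000 reads, Chd7 was the 1 gene of this list called in Veh mice, and Myrf, Id4 and Id2 missed (edgeR adjusted p = 0.120, 0.0687 and 0.0956). Both Id genes are expressed by other cells of the hippocampus as well, and Chd7 too is not particular to the lineage.

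Id2 was also the only gene of the 4 other lineage lists called for PF4 in Old mice. Its level ran from 114 to 153 CPM in Old Veh and from 148 to 170 CPM in Old PF4 mice, so that the groups overlapped only at their edges, while both Young groups ran from 132 to 174 CPM. The log2 fold change of Id2 was 0.25 (SE 0.049, edgeR adjusted p = 0.0347). The call was made in 10 of 22 fits that left out 1 library (it was missed without Old PF4 replicate 8, among others) and was lost with the length index or the mature myelin score as a covariate (edgeR adjusted p = 0.0647 and 0.0559), with the Old groups fitted alone (edgeR adjusted p = 0.0972) and without the libraries under 5000000 reads (edgeR adjusted p = 0.188). The Id2 gene had a difference of the PF4 effect between the ages of 0.25 (SE 0.067, edgeR adjusted p = 0.829).

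**Figure D4:**
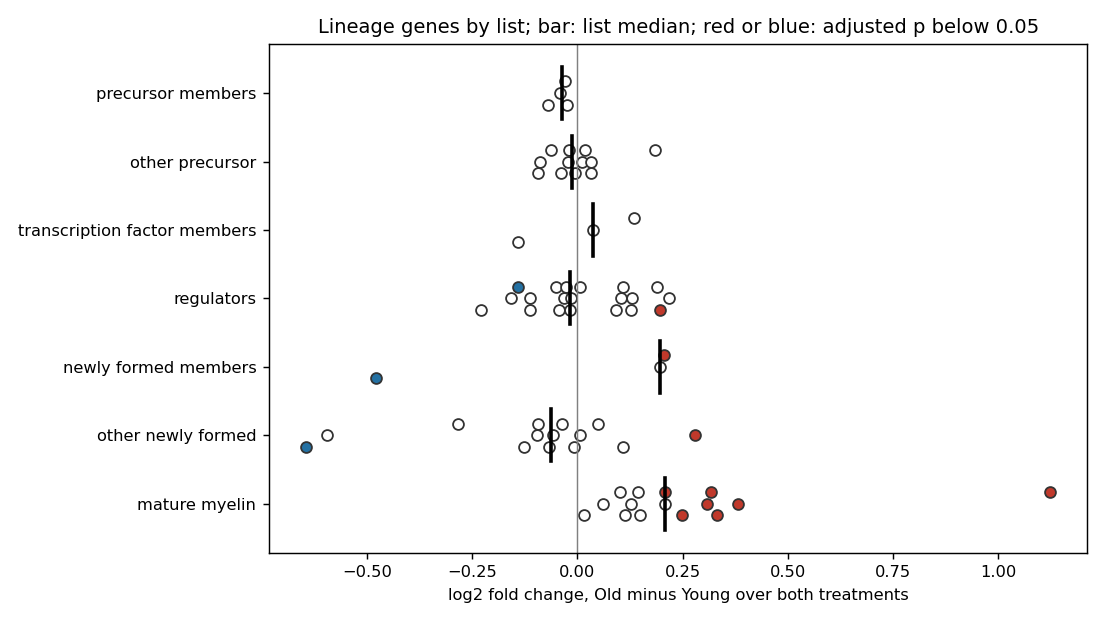
Log2 fold change of Old against Young over both treatments (horizontal axis) for every gene tested in 7 lists of the lineage, with a bar for the median of each list. Red points rose and blue points fell at an edgeR adjusted p below 0.05, and the medians are -0.04 for the precursor members, -0.06 for the other newly formed genes and 0.21 for the mature myelin genes.

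The mature oligodendrocyte and myelin list stood on the other side of Gpr17. Over both treatments 7 of its 15 genes rose, 0 fell and 8 were not called, with all 15 values above 0 and a median of 0.21. Aspa, which breaks down N-acetylaspartate in oligodendrocytes, rose from 21.4 ± 2.42 and 22.2 ± 5.27 CPM in Young Veh and Young PF4 to 28 ± 3.49 and 28.5 ± 3.47 CPM in Old Veh and Old PF4 mice (log2 fold change 0.38, SE 0.063, edgeR adjusted p = 5.96e-05). Hapln2, a link protein of the nodes of Ranvier, rose by 0.32 (edgeR adjusted p = 0.000905), Opalin, a myelin membrane protein, by 0.33 (edgeR adjusted p = 0.00152), and Klk6, a secreted protease, by 1.12 (edgeR adjusted p = 0.00154). The level of Klk6 was low, with means of 1.15 and 1.63 CPM in Young Veh and Young PF4 and of 2.09 and 3.57 CPM in Old Veh and Old PF4 mice. In Veh mice alone 1 of the 15 genes was called, Aspa (0.38, edgeR adjusted p = 0.00719), while DESeq2 called 2 and edgeR called 4 with the length index as a covariate. In PF4 mice alone 3 were called, Opalin (0.45), Klk6 (1.44) and Aspa (0.39), with edgeR adjusted p-values of 0.0242, 0.0277 and 0.0402. With 1 library left out, Opalin was called in 17 of 22 fits, Klk6 in 16 and Aspa in 7, and the count of called genes ran from 0 to 6. These 3 calls were lost with the PF4 groups fitted alone, while DESeq2 on all groups called 5 of the 15 genes.

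For PF4 within an age the other lineage lists held no called gene besides Id2. In Old mice the smallest p-values belonged to genes such as Cacng4 (0.20) among the other precursor genes, to Itpr2 (-0.13) and Tcf7l2 (0.34) among the other newly formed genes, and to Klk6 (0.82) and Cldn11 (0.16) among the mature genes, with edgeR adjusted p-values between 0.626 and 0.889. In Young mice they belonged to Matn4 (0.32) and Nkx2-2 (-0.18), to Tcf7l2 (0.23) and 9630013A20Rik (-0.20), to Chd7 (0.12) and Gpr37 (-0.05), and to Ugt8a (-0.11) and Opalin (-0.12), each with an edgeR adjusted p of 1.00. Among PF4 mice of both ages the smallest p-values of the lists without a call were those of Nkx2-2 (0.40) and Megf11 (-0.16), 9630013A20Rik (-0.66) and Bmp4 (-0.75), and Nkx6-2 (0.28) and Gpr37 (0.14).

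Other cell types moved with age in the same libraries. Of 8 microglial markers 6 rose over both treatments, led by C1qb (0.34) and C1qa (0.35), and of 10 astrocyte markers 2 rose, Slc1a2 (0.16) and Gfap (0.38). Of 8 meningeal and perivascular fibroblast markers 2 fell, Col1a1 (-0.66) and Col1a2 (-0.74), and of 10 pericyte and mural markers 1 fell, Acta2 (-0.60). Of the 10 choroid plexus, 8 endothelial and 8 neuronal markers 0 were called by edgeR, with 6, 0 and 3 at an unadjusted p below 0.05 and 0, 0 and 1 called by DESeq2, and the choroid plexus list had a median of -0.98. No marker of these lists was at 0 in every library of the series. With the choroid plexus score, the mean log2 CPM of that list, as a covariate the log2 fold change of Gpr17 over both treatments was -0.52 (edgeR adjusted p = 0.000207), and that of Bcas1 was 0.21 (edgeR adjusted p = 0.0765).

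Across the 47 libraries, with the group means removed, most members rose and fell together. Over the 45 pairs of members the median Pearson r was 0.405, and 30 pairs lay above 0. Olig1 and Olig2 were the closest pair (r = 0.808), followed by Olig1 with Sox10 (r = 0.774), Olig1 with Bcas1 (r = 0.762) and Bcas1 with Sox10 (r = 0.737). Gpr17 had r = 0.654 with Cspg4, r = 0.549 with Sox10 and r = 0.035 with Enpp6, and by rank these values were lower for the first and the second (Spearman rho = 0.392 and 0.399). These values describe libraries that share depth and composition, and they carry no test.

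Pdgfra and Neu4 did not follow the other members. Pdgfra had r between -0.326 (Sox10) and 0.031 (Cspg4) with the other 9 members, and Neu4 had r between -0.268 (Olig1) and 0.029 (Gpr17). Pdgfra instead tracked the mean of the pericyte and mural markers (r = 0.529) and of the fibroblast markers (r = 0.468), and PDGF receptor alpha is known from fibroblasts of the brain's coverings and vessels as well as from precursors. The pericyte list had summed levels between 128 and 233 CPM and the fibroblast list between 40.2 and 240 CPM. Cspg4, which pericytes also express, had r = 0.473 with the pericyte markers. With the mean of the other precursor genes Cspg4 had a higher value, r = 0.708, and Pdgfra had r = 0.015. The part of pericytes and fibroblasts in the levels of Pdgfra and Cspg4 was not tested.

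**Figure D5:**
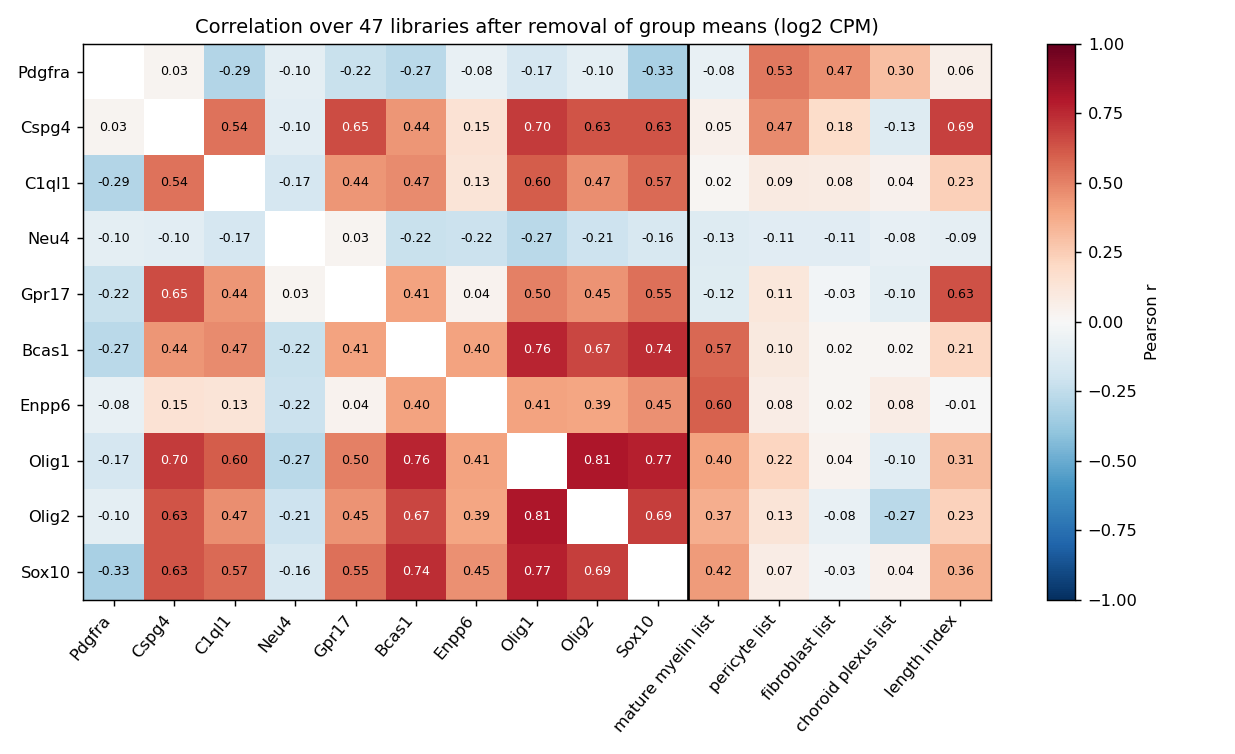
Pearson r over 47 libraries, after removal of the group means, between the log2 CPM of the members (left of the line) and between each member and 4 marker list scores and the length index (right of the line). The block of Bcas1, Olig1, Olig2 and Sox10 reaches r = 0.808, Pdgfra has r = 0.529 with the pericyte list, and Gpr17 has r = 0.633 with the length index.

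The newly formed genes differed in what they tracked. Bcas1 (r = 0.571) and Enpp6 (r = 0.597) moved with the mean of the mature myelin list, whereas Gpr17 had r = -0.123 with it. With the mean of the other precursor genes Gpr17 had r = 0.559 (Spearman rho = 0.337), Bcas1 r = 0.44 and Enpp6 r = 0.083. The genes most like Bcas1 among all other genes tested, by Spearman rho over the 47 libraries, included Mobp (0.842) and Cldn11 (0.826), which encode myelin proteins. Those most like Sox10 were Csrp1 (0.853), Cldn11 (0.852) and Prr18 (0.830). For Enpp6 they were Plekhh1 (0.624), Dnah9 (0.573) and Clmn (0.560).

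For Gpr17 the 3 most similar genes were Fam120c (0.737), Adgrb1 (0.721) and Slc32a1 (0.716), of which Slc32a1 encodes the vesicular transporter of inhibitory neurons. Cspg4 was most like Agpat3 (0.823), Man2a2 (0.787) and Aatk (0.787), and it too moved with the length index (Pearson r = 0.687, Spearman rho = 0.453). Olig1 was most like Lgi3 (0.827), Bin1 (0.809) and its overlapping transcript Gm15966 (0.801), and Olig2 was most like Grb2 (0.737), Zfp536 (0.722) and Aplp1 (0.715). C1ql1 was most like Snf8 (0.720), Gm37811 (0.709) and Brk1 (0.707). Pdgfra had Sptlc2 (0.634) and Itpkc (0.606) among the genes most like it, and Neu4, whose values were the lowest of the 10 members, was most like Dph2 (0.566), Gm9833 (0.537) and Cd300a (0.520). Against all genes the median rho of each member lay between -0.015 and 0.008, and the 95th percentile of rho over all genes ran from 0.259 (Neu4) to 0.505 (Cspg4).

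Promoter sequence around the start of the gene, from RefSeq on GRCm38, was read for 5 members, Pdgfra, Cspg4, Neu4, Enpp6 and Olig2. The letters CATATG, an E-box, occurred in 0 of these 5 windows and in 3.91% of all 32851 promoters on either strand, and the letters ACAAAG, a SOX motif, in 0 of 5 and in 18.7% of all. No match says only that these letters are not in these windows.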

How the data were processed

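Hippocampal RNA of 47 mice was made into full-length cDNA libraries by the Smart-Seq2 method, without strand information. Trim Galore 0.3.7, STAR 2.5.3a, DESeq2 and GRCm38 are named in the submitters' processing notes. The table deposited by the authors holds raw read counts by gene, not normalized, and their methods exclude samples of low coverage. Groups followed the age and treatment in the labels.

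Counts were used as deposited. The quasi-likelihood test of edgeR 4.0.16 (R 4.3.3) was fitted to the 4 groups in a single model with TMM scaling and the filterByExpr filter. The threshold for a call was 0.05 on the p adjusted by Benjamini-Hochberg. The study's methods name DESeq2, and DESeq2 1.42.0 was run as an alternative. The SE was taken as the size of the log2 fold change over the root of its F statistic. A prior count of 2 entered the log2 CPM. Exon lengths came from GENCODE M21 (GRCm38). The length index compares genes with transcripts of at least 4594 bases with those of at most 2006 bases. Steps were tested on simulated counts.

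The 10 members and all lists were chosen with earlier results of these data known. The named genes are the members, and from each other list of the lineage the called genes (at most 4 by p) or else the 2 of smallest p, and the 3 genes most like each member by Spearman rho. Some genes that this rule gives are not reported here. Alternatives were other tests, scalings, filters and covariates, a replicate block, the groups of a comparison alone, and libraries left out singly or by depth. A fit without the 2 libraries of lowest length index was added after the data had been examined. Where the labels give no separate litters or days, p-values measure the spread between these mice.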

Additional observations from a re-analysis of the deposited data

Results flagged for a closer look

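Old PF4 replicate 8 stood apart from the other 9 libraries of its group at the low end of 3 members, by Dixon's test on log2 CPM. Cspg4 had 3.06 there against 3.65 in the next lowest library of the group, Olig2 had 3.78 against 4.35, and Sox10 had 4.86 against 5.39. The test was made for both ends of the 10 members in this group, 20 ends in all. Chance flags about 1 in 20 for a single gene, so a flag somewhere among 10 genes is more frequent than that. The flagged genes are also correlated (Olig2 with Sox10, Pearson r = 0.691), so the 3 flags are not separate events. Old PF4 replicate 8 was also the lowest of its group for Gpr17, Bcas1, Enpp6, Olig1 and C1ql1, which were not flagged. It had a length index of -0.228 and 12380047 reads. The other groups were not tested in this way. In Young Veh replicate 4, with a length index of -0.348, Cspg4 had 2.83 against 3.51 in the next lowest library of that group. Without Old PF4 replicate 8 the log2 fold change of Old against Young over both treatments was -0.44 for Gpr17 (edgeR adjusted p = 0.000166) and 0.22 for Bcas1 (edgeR adjusted p = 0.0263). For PF4 against Veh in Old mice it was then 0.27 for Olig2 (edgeR adjusted p = 0.544), 0.22 for Sox10 (edgeR adjusted p = 0.702) and 0.10 for Cspg4 (edgeR adjusted p = 0.969).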

How the results depend on the processing

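Of 640 member values under alternatives other than leaving out 1 library, 608 kept their direction and their side of the threshold, 4 lost a call, 1 gained one and 27 changed sign, 0 of which were called. Of 1880 member values with 1 library left out, 1800 stayed as they were, 25 lost a call (all Bcas1 over both treatments) and 55 changed sign, 0 of them called. Gpr17 was called over both treatments in each of these fits. The cause of the changes was not tested. Libraries of few reads limit the members of low count, Neu4, Enpp6 and C1ql1.

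Members called over both treatments were 1 without the count filter, without the libraries under 5000000 reads and with the choroid plexus or mature myelin score as covariate, against 2 as reported, and between 1 and 2 with 1 library left out. Genes called in Old Veh against Young Veh were 492, and 176 without the libraries under 5000000 reads, 901 with the length index and 807 without the libraries of low length index, with 356 to 593 when 1 library was left out. In Old PF4 against Young PF4 they were 59, and 90 by DESeq2, 21 with the groups alone, 98 with the length index, 14 with the myelin score and 89 without the libraries of low length index (36 to 91 with 1 library left out). Over both treatments they were 838, and 437 without the libraries under 5000000 reads, 1398 with the length index and 423 with the myelin score (674 to 1092 with 1 library left out). In Old PF4 against Old Veh they were 6, and 24 by DESeq2, 10 with the choroid plexus score, and 0 with the groups alone, without the libraries under 5000000 reads and with the length index or myelin score (0 to 20 with 1 library left out). For the difference of the PF4 effect edgeR called 1 gene without the count filter, against 0.

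Same-numbered mice did not deviate together (66 pairs, correlation -0.425 to 0.554, median -0.006), so the numbers were not taken as pairs. With the replicate block, edgeR called 1 member in Old PF4 against Young PF4 (Gpr17, -0.46, adjusted p = 0.0217), 90 genes in that comparison and 10 in Old PF4 against Old Veh, and signs changed for Cspg4 in Old PF4 against Old Veh (-0.065) and for Olig1 (-0.011) and Olig2 (-0.0063) in Young PF4 against Young Veh.

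The other sign changes are these. Cspg4 in Old Veh against Young Veh was -0.040 without the libraries under 5000000 reads, -0.11 with the length index, -0.018 with the choroid plexus score and -0.042 without the libraries of low length index, and its difference of the PF4 effect was 0.0054, 0.067 and 0.035 under the first, the second and the last of these. Without the libraries under 5000000 reads Pdgfra was 0.0013 over both treatments and -0.012 in Young PF4 against Young Veh, where Olig1 was -0.011. With the choroid plexus score Pdgfra was 0.033 over both treatments. With the myelin score Sox10 was -0.026 in Veh mice, -0.014 in PF4 mice and -0.020 over both, Enpp6 -0.089 in PF4 mice, -0.034 over both and -0.11 for the difference of the PF4 effect, Olig1 -0.068 in PF4 mice and -0.078 over both, and Bcas1 0.0034 in Young PF4 against Young Veh. Without the libraries of low length index C1ql1 was 0.043 and Olig2 0.018 in Old PF4 against Young PF4, and Olig1 -0.024 and Olig2 -0.0091 in Young PF4 against Young Veh.

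With 1 library left out, values that crossed 0 ran in Veh mice from -0.011 to 0.052 (Pdgfra), -0.044 to 0.074 (Cspg4), -0.0040 to 0.081 (Neu4) and -0.047 to 0.018 (Olig1). In PF4 mice they ran from -0.064 to 0.039 (C1ql1) and -0.088 to 0.013 (Olig2), and over both treatments from -0.066 to 0.0072 (Cspg4). In Old PF4 against Old Veh they ran from -0.028 to 0.098 (Cspg4) and -0.096 to 0.0038 (Enpp6). In Young PF4 against Young Veh they ran from -0.074 to 0.015 (C1ql1), -0.082 to 0.017 (Bcas1), -0.028 to 0.043 (Olig1), -0.022 to 0.060 (Olig2) and -0.0027 to 0.085 (Sox10), and the difference of the PF4 effect from -0.027 to 0.084 (Enpp6).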
